A study of Homo sapiens with 4 samples.

Results

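The subject here is a set of 33 human genes of the DNA damage response and of break repair, chosen by name and found as 33 rows among the 56303 features of a table of raw counts. The samples were 4 libraries from Huh7, an established hepatocellular carcinoma line, with 1 library per group. The shRBM39 cells were transfected with a plasmid for a short hairpin RNA against RBM39, an RNA-binding splicing factor, and the shControl cells are labelled as its control. Each culture gave an RNA immunoprecipitate (IP) made with an antibody against RBM39 and the input RNA that went into it. The groups were thus shRBM39 IP, shRBM39 input, shControl IP and shControl input. No IP with a control antibody was used here, so in what follows recovery is only the IP level divided by that of the matching input.

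Total counts were 45812488 in the shRBM39 IP, 22249581 in the shRBM39 input, 41387762 in the shControl IP and 20858382 in the shControl input. All 33 genes passed the filter of at least 10 counts in at least 2 libraries, as did 19210 features in all. The 33 genes held 128573 and 69107 counts in the shRBM39 IP and input, against 120940 and 53490 counts in the shControl IP and input. RBM39 itself stood at 370 CPM (counts scaled to the size of the library) in the shRBM39 input and 404 CPM in the shControl input, a log2 ratio of -0.13, so the knockdown that the label names was barely visible in this RNA and the cultures are named by their labels. In the IPs, RBM39 mRNA had 2221 CPM in shRBM39 cells and 1036 CPM in shControl cells. Its log2 ratios of IP over input were 2.58 in shRBM39 cells and 1.36 in shControl cells, a difference of 1.23. Its recovery was thus higher in the cells labelled as knockdown, and the cause was not tested. The 10 hepatocyte markers examined, among them ALB, AFP and APOB, were present in every library. Of 12 markers of leukocytes, endothelium and fibroblasts, LYZ had 159 and 273 CPM in the shRBM39 IP and input and 284 and 396 CPM in the shControl IP and input, PECAM1 reached 8.598 CPM, and DCN had 0 counts in all 4 libraries. Bulk RNA cannot tell a change in the share of cells that express a gene from a change in RNA per cell.

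As background, a double-strand break is first bound by the MRN complex or by the Ku heterodimer. MRN recruits the kinase ATM and starts the trimming of the ends that commits a break to homologous recombination, in which BRCA1, PALB2 and BRCA2 act together, whereas Ku recruits the kinase DNA-PK for end joining. The Fanconi proteins open the repair of DNA crosslinks, and ATR with CHEK1 guards stalled replication forks. Many of these genes are transcribed most strongly in cells that are replicating DNA.

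The first comparison asked how the levels of these mRNAs differed between the input RNAs of the cultures. The mRNAs of both Ku subunits were higher in the shRBM39 input, and so were those of several proteins that act at broken ends. XRCC5, the larger Ku subunit (chromosome 2, 216109348 to 216206293, GRCh38), had 324 CPM in the shRBM39 input and 159 CPM in the shControl input. XRCC6, the smaller subunit, had 316 CPM in the shRBM39 input and 179 CPM in the shControl input. These are log2 ratios of 1.03 (95% counting interval 0.97 to 1.09) and 0.82 (0.77 to 0.88). PRKDC, the catalytic subunit of DNA-PK that Ku recruits, stood at 944 CPM in the shRBM39 input and 809 CPM in the shControl input, a log2 ratio of 0.22 (0.19 to 0.25). With 1 library per group there is no replicate check and no p-value for this comparison, and the intervals cover counting error only.

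A feature was called when it differed by at least 2-fold and its counting interval excluded equality. By that rule XRCC5 was the 1 gene of the 33 called higher, where 5.10% of all compared features were called higher, and 0 of the 33 were called lower, against 5.74%. At 1.5-fold, 4 of the 33 were called higher, namely XRCC5, XRCC6, MDC1 and MRE11A, against 12.7% of all features, and 0 were called lower, against 11.9%. The share of higher calls among the repair genes was thus near that of all features. The median log2 ratio of the 33 genes was 0.16, beside -0.01 over all compared features. Of the 33 genes 25 lay above 0, beside 9403 of all 19210 features. With libraries scaled to their total counts XRCC5 was at 0.95 and no longer called, 20 of the 33 lay above 0, and BARD1, FANCA, FANCG, FANCM and RAD51C changed sign.

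Among the break sensors and signalling proteins, MDC1, a scaffold that binds phosphorylated histone H2AX, had 164 CPM in the shRBM39 input and 99.1 CPM in the shControl input (log2 0.72, 0.65 to 0.80). The antisense feature MDC1-AS1 overlaps MDC1, held 43.8% as many counts over the 4 libraries, and had an input log2 ratio of 0.87. Since no strand setting is given in the sources used here, reads of this pair cannot be told apart. MRE11A, the nuclease of MRN, had 46.3 CPM in the shRBM39 input and 28.96 CPM in the shControl input (log2 0.68, 0.53 to 0.82). RAD50, the ATPase of the complex, had 152 CPM in the shRBM39 input and 106 CPM in the shControl input (log2 0.53, 0.45 to 0.61), and NBN, which links MRN to ATM, had 53.4 CPM and 46.5 CPM in the same order (log2 0.20, 0.08 to 0.32). All 3 MRN mRNAs therefore stood above their shControl level, by unequal amounts.

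The checkpoint kinases differed less. ATM had 112 CPM in the shRBM39 input and 95.4 CPM in the shControl input (log2 0.23, 0.14 to 0.31). ATR (-0.05, -0.22 to 0.12), CHEK1 (0.12, 0.003 to 0.24) and CHEK2 (0.16, 0.006 to 0.32) lay within 0.2 of equality on the log2 scale. TP53BP1, which holds back end resection, had a log2 ratio of 0.18 (0.10 to 0.25). RBBP8, the cofactor that starts resection with MRN, stood slightly below equality at -0.14 (-0.22 to -0.06), and EXO1, the exonuclease that extends it, above at 0.56 (0.42 to 0.71).

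In the homologous recombination group, BRCA1 had 77.2 CPM in the shRBM39 input and 53.8 CPM in the shControl input (log2 0.52, 0.41 to 0.63). BARD1, its obligate ring-finger partner, was nearly equal in the cultures, with 18.7 CPM in the shRBM39 input and 18.6 CPM in the shControl input (log2 0.01, -0.19 to 0.21). BRCA2, which acts downstream of BRCA1, was at 0.40 (0.29 to 0.51) and PALB2, which joins it to BRCA1, at 0.22 (0.03 to 0.41). The helicase BLM was at 0.46 (0.27 to 0.65) and its relative WRN at 0.13 (0.02 to 0.24). Of 3 further recombination genes, XRCC2 had 37.7 CPM in the shRBM39 input and 47.5 CPM in the shControl input (log2 -0.33, -0.47 to -0.20), while RAD51C (0.03, -0.13 to 0.19) and XRCC3 (0.13, -0.11 to 0.37) had intervals that included equality.

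The Fanconi genes followed next. FANCD2 and FANCI, the pair that is ubiquitinated at crosslinks, stood at 0.55 (0.41 to 0.70) and 0.27 (0.19 to 0.35). The 8 genes of the core complex, the ubiquitin ligase that modifies the pair, had a median of -0.17 and a range of -0.48 to 0.07. FANCC was the lowest of them, with 5.89 CPM in the shRBM39 input and 8.21 CPM in the shControl input on 128 and 177 counts (log2 -0.48, -0.82 to -0.15). The intervals of the other core genes, FANCA, FANCB, FANCE, FANCF, FANCG, FANCL and FANCM, included equality, so their differences were not detectable at this depth.

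**Figure D1:**
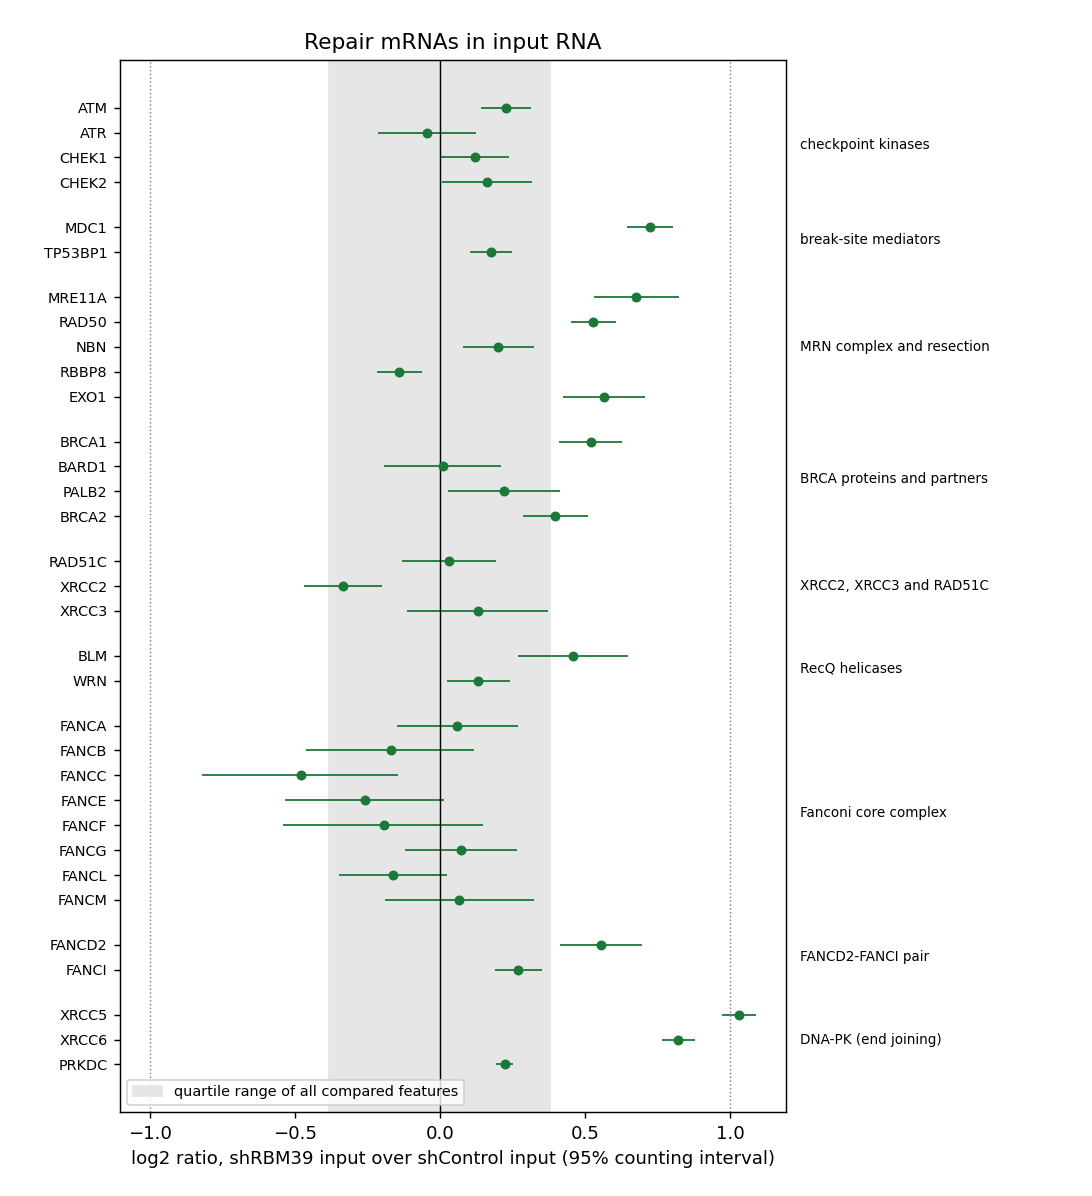
Log2 ratio of shRBM39 input over shControl input for each of the 33 genes, grouped by role. Points are single-library ratios, bars are 95% counting intervals, dotted lines mark 2-fold, and the grey band spans the quartiles of all 19210 compared features, from -0.38 to 0.38. XRCC5 sits at 1.03 and FANCC at -0.48.

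Replication genes were also higher in the shRBM39 input. Of 22 replication and mitosis genes, 6 were called higher at 2-fold in the shRBM39 input and 0 lower, with a median log2 ratio of 0.64. Over all compared features 5.10% were called higher and 5.74% lower. MCM7 and MCM6, subunits of the replicative helicase, were at 1.73 and 1.66, MCM3 at 1.48 and RRM1, a subunit of ribonucleotide reductase, at 1.42. CLSPN, from the checkpoint signalling list, is the adaptor through which ATR activates CHEK1 and was at 1.29. The part of the proliferation genes in the values of the repair genes was not tested. Of 17 p53 targets and regulators of damage gene transcription, 2 were called higher and 1 lower, beside the same 5.10% and 5.74%. CDKN1A, the p53-induced inhibitor of cyclin-dependent kinases, was at 1.01, TP53I3 at 1.05, BBC3 at -1.11 and XPC at 0.92. CDKN1A rested on 78 counts in the shRBM39 input and 38 in the shControl input (0.45 to 1.62). With total counts every input log2 ratio was lower by 0.08, which takes CDKN1A and TP53I3 below 2-fold. The median of the 17 was -0.06, near that of all features, while single members stood on both sides.

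The medians of the remaining repair lists lay close to equality in input. Checkpoint signalling had a median of 0.07 over 16 genes and other homologous recombination genes one of 0.16 over 25. At 2-fold, 1 checkpoint gene (CLSPN) was called higher and 0 lower, and 0 of the other recombination genes higher and 1 (RAD51B) lower. Over all features 5.10% were called higher and 5.74% lower. RAD51B was at -1.31 on only 14 and 35 counts in the shRBM39 and shControl inputs (-2.34 to -0.40). RPA1, the largest subunit of the single-strand binding complex, was at 0.87 and RECQL at 0.84. The medians were -0.14 over 19 other Fanconi and crosslink repair genes, with UBE2T, the ubiquitin-conjugating enzyme of the core complex, at -0.65. They were 0.13 over 17 genes of ubiquitin and chromatin signalling at breaks, with HERC2 at 0.83, and 0.10 over 17 other end joining genes, with PARP1 at 0.87. None of the 3 lists had a member called at 2-fold. With total counts every one of these log2 ratios was lower by 0.08.

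**Figure D2:**
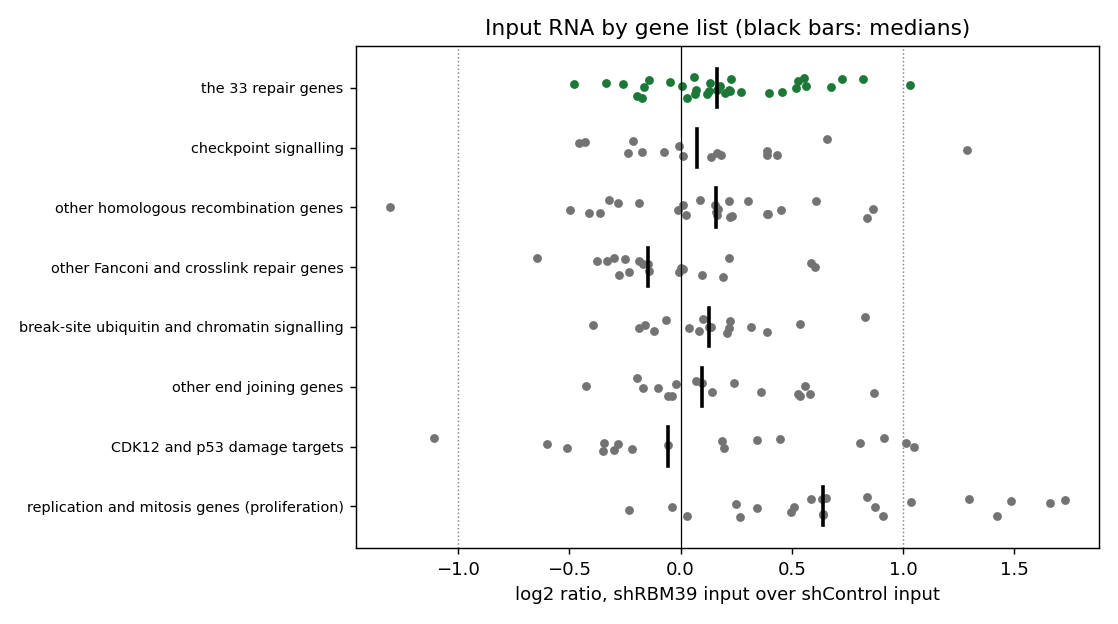
Log2 ratio of shRBM39 input over shControl input for the 33 repair genes and 7 further lists. Each point is 1 gene, black bars are medians and dotted lines mark 2-fold. The repair genes have a median of 0.16 and the replication and mitosis genes one of 0.64.

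The promoters below belong to repair genes at both ends of the input comparison: the 3 highest and the 2 lowest log2 ratios among those with 1 promoter entry in RefSeq, a choice made after the values were seen. Of the 33 genes, 28 matched RefSeq promoters, with 36 entries in all, each running from 250 bases before to 50 bases after a transcript start (GRCh38.p14, 5' to 3'). Capitals mark matches on either strand to GGGCGG (the GC box), to CCAAT, or to any of TTTCCCGC, TTTGGCGC, TTTCGCGC and TTTGCCGC, the letters that E2F factors of the replication programme are known to bind.
XRCC6, chr22:41621045-41621344, strand +: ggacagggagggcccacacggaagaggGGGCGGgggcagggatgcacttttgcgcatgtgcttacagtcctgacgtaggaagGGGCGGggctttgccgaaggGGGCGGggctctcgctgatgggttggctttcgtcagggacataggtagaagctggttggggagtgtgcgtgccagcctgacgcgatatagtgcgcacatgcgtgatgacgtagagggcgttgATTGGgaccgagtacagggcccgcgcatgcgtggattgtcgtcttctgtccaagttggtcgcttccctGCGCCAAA
MDC1, chr6:30717232-30717531, strand -: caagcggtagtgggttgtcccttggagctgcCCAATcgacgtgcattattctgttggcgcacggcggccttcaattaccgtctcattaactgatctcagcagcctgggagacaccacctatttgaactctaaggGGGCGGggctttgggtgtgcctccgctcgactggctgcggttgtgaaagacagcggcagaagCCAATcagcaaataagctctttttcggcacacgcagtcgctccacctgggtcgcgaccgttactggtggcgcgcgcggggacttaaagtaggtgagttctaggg
MRE11A, chr11:94493795-94494094, strand -: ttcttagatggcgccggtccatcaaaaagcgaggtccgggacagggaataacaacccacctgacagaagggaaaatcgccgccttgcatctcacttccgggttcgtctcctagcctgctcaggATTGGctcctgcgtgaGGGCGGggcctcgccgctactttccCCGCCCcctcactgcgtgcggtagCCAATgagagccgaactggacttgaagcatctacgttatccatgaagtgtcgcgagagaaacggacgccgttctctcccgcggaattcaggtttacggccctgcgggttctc
FANCE, chr6:35452088-35452387, strand +: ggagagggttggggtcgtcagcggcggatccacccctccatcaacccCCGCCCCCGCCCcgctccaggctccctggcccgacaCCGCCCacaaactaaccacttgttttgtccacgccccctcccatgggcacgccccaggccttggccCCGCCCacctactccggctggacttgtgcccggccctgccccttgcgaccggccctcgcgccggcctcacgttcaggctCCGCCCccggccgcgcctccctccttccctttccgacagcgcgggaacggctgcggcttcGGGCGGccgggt
XRCC2, chr7:152676092-152676391, strand -: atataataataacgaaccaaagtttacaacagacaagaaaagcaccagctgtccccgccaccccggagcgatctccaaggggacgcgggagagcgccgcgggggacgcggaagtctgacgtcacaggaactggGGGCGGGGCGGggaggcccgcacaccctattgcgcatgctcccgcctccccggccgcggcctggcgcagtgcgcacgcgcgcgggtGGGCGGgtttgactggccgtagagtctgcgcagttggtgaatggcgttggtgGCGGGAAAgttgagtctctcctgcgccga

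XRCC6 holds 3 GC boxes, 1 CCAAT and 1 E2F-type match, the last at its very end. MDC1 holds 1 GC box and 2 CCAAT matches, and MRE11A 2 of each. XRCC2 holds 3 GC boxes, of which a pair overlap, and 1 E2F-type match, and FANCE holds 6 GC boxes. CCAAT is in all 3 promoters from the high end and in neither from the low end, a description of 5 chosen windows. Over the 36 entries, the GC box was present in 72.2% against 45.0% of all 35116 RefSeq promoters, CCAAT in 47.2% against 34.6%, and an E2F-type match in 16.7% against 3.31%. These are letter matches in a fixed window and not binding sites. The background promoters were not matched to the repair genes in expression or GC content. Across the 28 genes, the GC content of the promoter and the input log2 ratio had a Spearman rho of -0.46 (Pearson r -0.40), beside -0.09 (r -0.09) over 10586 protein-coding features. Genes within these correlations share the same 2 libraries.

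The next question was which repair mRNAs were recovered with RBM39 above or below their input level. Over both cultures, 6 of the 33 were higher in the IP, namely FANCG, MDC1, XRCC6, XRCC5, XRCC3 and FANCE, and 8 were lower, namely FANCB, RBBP8, XRCC2, ATM, FANCC, BARD1, PALB2 and BRCA2. The test was edgeR's quasi-likelihood test of IP against input with culture as a second term, at a Benjamini-Hochberg adjusted p under 0.05 over all 19210 features. In it 19.2% of all features were called higher and 17.6% lower, so that 6 of 33 (18.2%) and 8 of 33 (24.2%) are near the background. The 2 cultures serve as the 2 repeats, the fit has 1 residual degree of freedom, and the p-values measure only the spread between these libraries. DESeq2 called 4 higher and 8 lower, without XRCC3 and FANCE, beside 16.0% and 12.9% of the 16230 features it gave an adjusted p. With fraction as the only term, which drops the pairing of IP and input by culture (no replicate block), edgeR called 0 of the 33 and 0 features in all, with 9 of the 33 at an unadjusted p under 0.05.

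The genes of end resection and of the BRCA group are given first. RBBP8 (chromosome 18, 22914139 to 23026486) had 70.05 CPM in the shRBM39 IP and 121 CPM in its input, and 62.9 CPM in the shControl IP and 133 CPM in its input. The IP was below the input in both cultures, with log2 ratios of -0.78 (-0.86 to -0.71) in shRBM39 cells and -1.08 (-1.155 to -1.004) in shControl cells (edgeR log2 -0.93, adjusted p 0.000127). BARD1 (chromosome 2, 214725646 to 214809683) had 12.4 CPM in the shRBM39 IP and 18.7 CPM in its input, and 8.92 CPM in the shControl IP and 18.6 CPM in its input, so that both IP values lay below both inputs. Its edgeR log2 ratio was -0.82 (adjusted p 0.001).

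PALB2 had 13.9 CPM in the shRBM39 IP and 22.3 CPM in its input, and 10.7 CPM in the shControl IP and 19.1 CPM in its input (edgeR log2 -0.76, adjusted p 0.00108). BRCA2 had 57.9 and 69.3 CPM in the shRBM39 IP and input, and 30.3 and 52.6 CPM in the shControl IP and input. The shRBM39 IP of BRCA2 thus lay above the shControl input, and the test across cultures gave -0.53 (edgeR adjusted p 0.0126). BRCA1, with 67.2 and 77.2 CPM in the shRBM39 IP and input and 39.2 and 53.8 CPM in the shControl IP and input, was at -0.33 and did not pass (edgeR adjusted p 0.0925). Each gene of this group of 4 had an IP over input interval below 0 in both cultures, with medians of -0.42 in shRBM39 cells and -0.82 in shControl cells. Of all 19210 features, 5768 had an interval below 0 in shRBM39 cells and 6350 in shControl cells.

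Of the kinases, ATM alone passed the test. It had 61.5 CPM in the shRBM39 IP and 112 CPM in its input, and 53.01 CPM in the shControl IP and 95.4 CPM in its input. The log2 ratios of -0.86 (-0.94 to -0.78) in shRBM39 cells and -0.85 (-0.93 to -0.76) in shControl cells were nearly equal (edgeR log2 -0.85, adjusted p 0.000197). CHEK1 was at 0.05 in shRBM39 cells and 0.15 in shControl cells, and CHEK2 at 0.01 and 0.34 in the same order, with edgeR adjusted p of 0.618 and 0.383. ATR, at -0.68 in shRBM39 cells and -0.07 in shControl cells, had an edgeR adjusted p of 0.0876.

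XRCC2, XRCC3 and RAD51C, whose proteins work in small complexes during homologous recombination, went separate ways. XRCC2 (chromosome 7) had 20.2 CPM in the shRBM39 IP and 37.7 CPM in its input, and 26.6 CPM in the shControl IP and 47.5 CPM in its input (edgeR log2 -0.87, adjusted p 0.000146). XRCC3 had 18.4 CPM in the shRBM39 IP and 13.6 CPM in its input, and 19.9 CPM in the shControl IP and 12.4 CPM in its input (edgeR log2 0.55, adjusted p 0.0119). RAD51C lay between them at 0.00 in shRBM39 cells and -0.24 in shControl cells (edgeR adjusted p 0.561). XRCC3 is uncertain, because KLC1, a kinesin light chain gene that overlaps it, held 858% as many counts, with log2 ratios of IP over input of 0.34 in shRBM39 cells and 0.50 in shControl cells.

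Within the Fanconi core complex the mRNAs of different subunits also lay on opposite sides. FANCG (chromosome 9, 35073839 to 35079942) had 32.5 CPM in the shRBM39 IP and 20.9 CPM in its input, and 39.97 CPM in the shControl IP and 19.9 CPM in its input. Both IP values exceeded both inputs (edgeR log2 0.82, adjusted p 0.000393), with log2 ratios of 0.64 (0.48 to 0.79) in shRBM39 cells and 1.004 (0.85 to 1.16) in shControl cells. FANCE, which docks FANCD2, was at 0.44 in shRBM39 cells and 0.52 in shControl cells (edgeR adjusted p 0.0329). FANCB (chromosome X, 14689524 to 14873069), a subunit of the catalytic module together with FANCL, had 4.78 CPM in the shRBM39 IP and 8.74 CPM in its input, and 4.47 CPM in the shControl IP and 9.84 CPM in its input (edgeR log2 -1.004, adjusted p 0.000685).

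FANCC had 3.65 CPM in the shRBM39 IP and 5.89 CPM in its input, and 4.23 CPM in the shControl IP and 8.21 CPM in its input (edgeR log2 -0.83, adjusted p 0.00545). The other 4 core genes did not pass. FANCA was at 0.26 in shRBM39 cells and 0.18 in shControl cells, FANCF at -0.05 and 0.29, FANCL, the ubiquitin ligase, at 0.04 and 0.04, and FANCM, the translocase that anchors the complex on DNA, at -0.13 and -0.05. FANCL overlaps VRK2 and FANCA overlaps ZNF276, which held 197% and 59.0% as many counts as these members. FANCD2 was at -0.02 in shRBM39 cells and -0.18 in shControl cells (edgeR adjusted p 0.639).

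Both Ku genes and MDC1 were higher in the IP. XRCC6 had 499.6 CPM in the shRBM39 IP and 316 CPM in its input, and 269 CPM in the shControl IP and 179 CPM in its input (edgeR log2 0.62, adjusted p 0.00862). XRCC5 had 445 CPM in the shRBM39 IP and 324 CPM in its input, and 274 CPM in the shControl IP and 159 CPM in its input (edgeR log2 0.62, adjusted p 0.00963). For both Ku subunits the shControl IP lay below the shRBM39 input, so the IP values do not stand apart from the inputs across cultures. MDC1 had 263 CPM in the shRBM39 IP and 164 CPM in its input, and 166 CPM in the shControl IP and 99.1 CPM in its input (edgeR log2 0.71, adjusted p 0.00183), and the overlapping MDC1-AS1 was at 0.66 in shRBM39 cells and 1.04 in shControl cells.

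The MRN mRNAs and EXO1 did not pass the test in either direction. MRE11A was at 0.20 in shRBM39 cells and 0.04 in shControl cells, RAD50 at 0.06 and 0.12, NBN at -0.39 and -0.04, and EXO1 at -0.04 and 0.01, with edgeR adjusted p from 0.276 for NBN to 0.935 for EXO1. WRN was at 0.01 in shRBM39 cells and -0.14 in shControl cells (edgeR adjusted p 0.756). Among the 33 genes, CHEK1, CHEK2, RAD50, RAD51C, WRN and FANCL turned below 0 in shRBM39 cells with total counts, and ATR, FANCM and NBN turned above 0 in shControl cells. MRE11A, FANCD2 and FANCB also overlap other genes, namely ANKRD49, FANCD2OS and NPM1P9, which held 14.7%, 12.8% and 10.7% as many counts.

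Few repair mRNAs were past 2-fold in a single culture. In shRBM39 cells 0 of the 33 were called higher and 0 lower, where 5.29% and 9.0% of all features were. In shControl cells FANCG was called higher, where 7.70% of all features were, and BARD1, FANCB and RBBP8 lower, where 11.3% were. These calls lie at the threshold: with total counts XRCC2 was called in shRBM39 cells at -1.01 and BARD1 was not called in shControl cells at -0.98, and without a filter BARD1 and RBBP8 were not called there at -0.97 and -0.99. With a minimum of 50 counts FANCG was not called in shControl cells at 0.97, which left 0 higher calls. At 1.5-fold 3 were higher in shRBM39 cells (15.5% of all features) and 8 lower (17.4%), and 5 were higher in shControl cells (18.9%) and 9 lower (20.6%). The median of the 33 was -0.05 in shRBM39 cells and 0.01 in shControl cells, beside 0.02 and -0.01 over all features. The repair genes as a set were thus centred on equality, with single genes from -1.14 to 1.004.

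**Figure D3:**
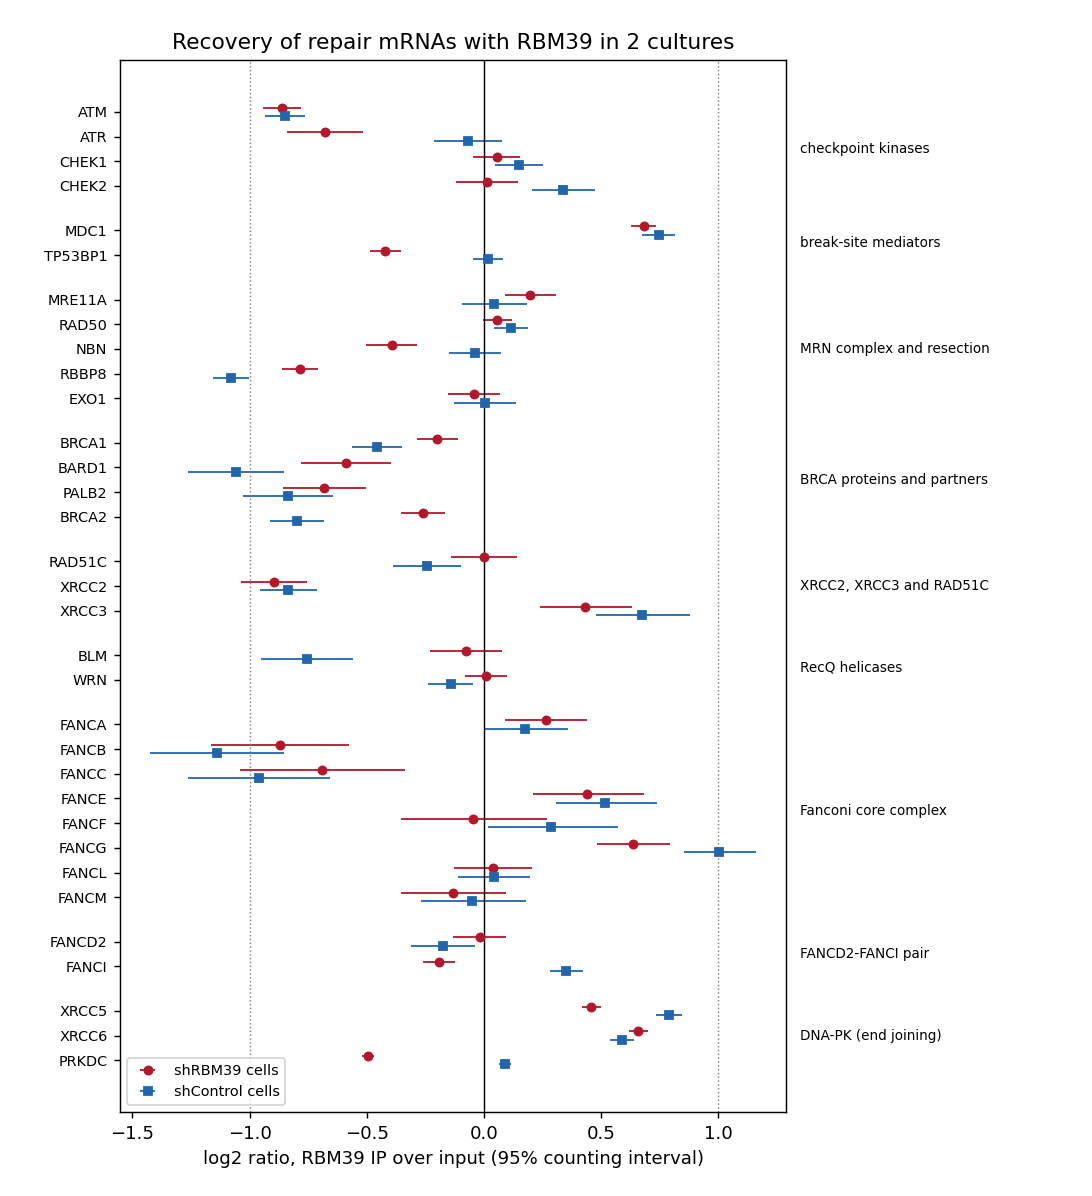
Log2 ratio of RBM39 IP over input for the 33 genes in shRBM39 cells (red circles) and shControl cells (blue squares), grouped by role. Bars are 95% counting intervals and dotted lines mark 2-fold. RBBP8 is at -0.78 and -1.08 and FANCG at 0.64 and 1.004 in shRBM39 and shControl cells.

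The values of the 33 genes in the 2 cultures had a Pearson r of 0.85 and a Spearman rho of 0.84, beside 0.64 and 0.68 over all 19210 features. This describes genes measured in the same 4 libraries, and genes are not independent replicates.

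**Figure D4:**
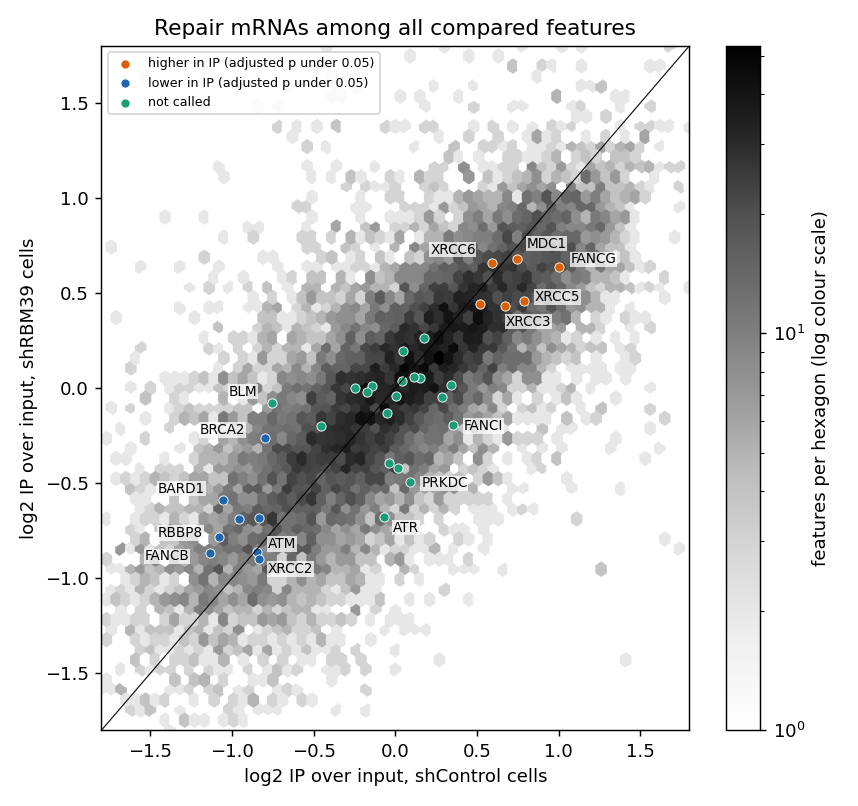
Log2 IP over input in shRBM39 cells (vertical axis) against shControl cells (horizontal axis). Grey hexagons count all compared features on a log colour scale within the plotted range, points are the 33 repair genes coloured by the edgeR call, and the line is equality. FANCG, at 0.64 in shRBM39 cells and 1.004 in shControl cells, is among the orange points at the upper right, and ATR, at -0.68 in shRBM39 cells and -0.07 in shControl cells, lies below the line.

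The difference of recovery, shRBM39 minus shControl, asked whether the hairpin went with a change in what the antibody brought down. At 2-fold 0 of the 33 were called higher and 0 lower, against 4.39% and 2.74% of all features. At 1.5-fold BLM was higher and ATR lower, against 7.95% and 6.83%. BLM had 23.8 CPM in the shRBM39 IP and 25.1 CPM in its input, and 10.8 CPM in the shControl IP and 18.2 CPM in its input, a difference of 0.68 (0.43 to 0.92). The shControl IP was the low one of the 4, and BLM did not pass edgeR's test over both cultures (log2 -0.41, adjusted p 0.0734). ATR had 16.3 CPM in the shRBM39 IP and 26.1 CPM in its input, and 25.7 CPM in the shControl IP and 26.9 CPM in its input, a difference of -0.61 (-0.825 to -0.39), so that for ATR the shRBM39 IP was low.

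PRKDC, FANCI and TP53BP1 also had differences below 0. None of them passed edgeR's test of IP against input over both cultures (adjusted p 0.486 for PRKDC, 0.738 for FANCI and 0.358 for TP53BP1). PRKDC had 671 CPM in the shRBM39 IP and 944 CPM in its input, and 862 CPM in the shControl IP and 809 CPM in its input, a difference of -0.58 (-0.62 to -0.55). FANCI had 108 CPM in the shRBM39 IP and 124 CPM in its input, and 131 CPM in the shControl IP and 103 CPM in its input. It had a difference of -0.54 (-0.64 to -0.45) and overlaps POLG, which held 75.7% as many counts and was at 0.63 in shRBM39 cells and 0.62 in shControl cells. TP53BP1, at -0.42 in shRBM39 cells and 0.02 in shControl cells, had a difference of -0.44 (-0.53 to -0.35) and overlaps TUBGCP4, which held 34.1% as many counts. On the other side, BRCA2 was at 0.54 (0.39 to 0.685), BARD1 at 0.47 (0.20 to 0.74), RBBP8 at 0.30 (0.19 to 0.40) and BRCA1 at 0.26 (0.12 to 0.39).

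Of the remaining members, NBN (-0.35), FANCG (-0.37), XRCC5 (-0.33) and CHEK2 (-0.32) had intervals below 0, and RAD51C (0.25), WRN (0.15) and XRCC6 (0.07) above 0. In all, 8 of the 33 intervals lay above 0 and 8 below, beside 3776 above and 4129 below among all 19210 features. Counting intervals may be too narrow, since both mates may have been counted. The intervals of XRCC6 (0.005 to 0.14) and WRN (0.02 to 0.28) cleared 0 by the least and are uncertain. Intervals from halved counts were used for the 2-fold calls only. Scaling to total counts lowered every difference by 0.19, which turned FANCA, FANCD2, MRE11A, PALB2, WRN and XRCC6 below 0 and left BLM at 0.49, BRCA2 at 0.35, BARD1 at 0.28, RBBP8 at 0.10 and BRCA1 at 0.06. The differences have no replicate, and their test against biological spread cannot be made with 1 library per group.

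Recovery was set against the genomic span of each gene in RefSeq, a property the choice of genes did not use. The 6 genes higher in the IP spanned 6.10 to 96.9 kb with a median of 17.7 kb, the 8 lower ones 31.4 to 219 kb with a median of 98.8 kb, and the 19 others 3.29 to 187 kb with a median of 79.1 kb. FANCG (6.10 kb), FANCE (14.8 kb), MDC1 (17.5 kb) and XRCC3 (17.8 kb) were in the first group, and FANCC (219 kb), FANCB (184 kb) and ATM (146 kb) in the second. In the first group, FANCE and XRCC3 lost their calls with DESeq2 and with total counts, and XRCC3 overlaps the more abundant KLC1. The median span of that group thus rests in part on these uncertain calls. PRKDC, at 187 kb, did not pass in either direction. Log10 span and log2 recovery had a Spearman rho of -0.48 (r -0.51) in shRBM39 cells and -0.52 (r -0.53) in shControl cells over the 33 genes, and -0.22 (r -0.18) and -0.23 (r -0.21) over 12886 protein-coding features. The span covers introns, so it is not the length of the mRNA. XRCC5, at 96.9 kb and higher in the IP, and XRCC2, at 31.4 kb and lower, depart from the pattern, as does FANCF, the shortest gene at 3.29 kb.

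**Figure D5:**
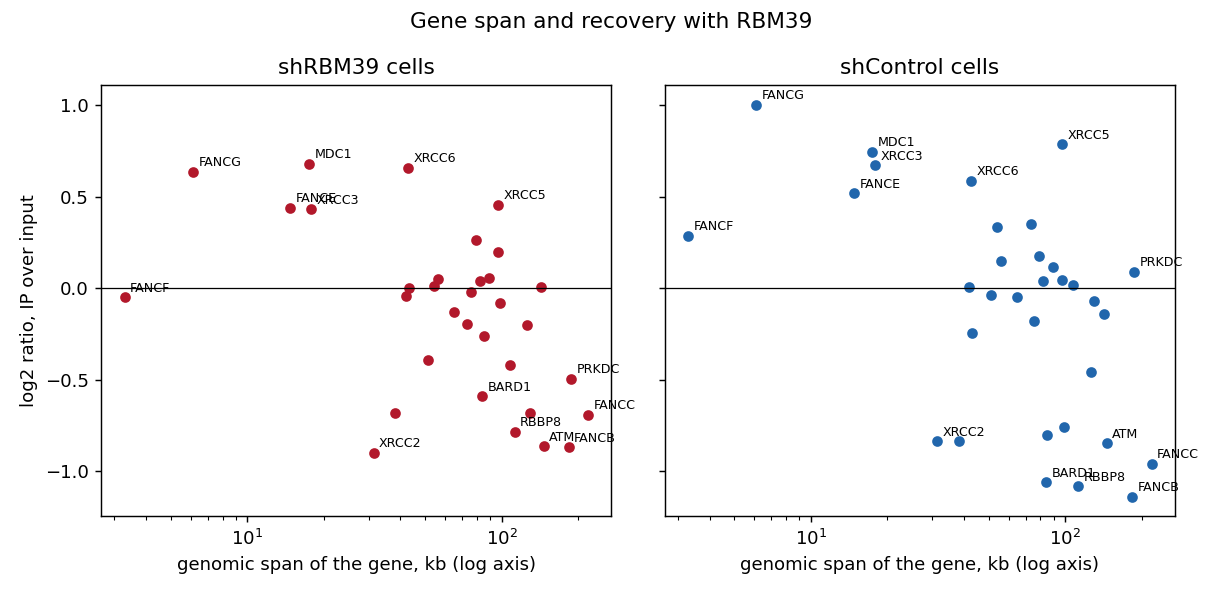
Log2 IP over input against the genomic span of each of the 33 genes in kb (log axis), in shRBM39 cells (left) and shControl cells (right). Each point is 1 gene in 1 pair of libraries. Spearman's rho is -0.48 on the left and -0.52 on the right.

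Other genes of the same pathways were taken from lists, again by edgeR's test over both cultures. Of 16 checkpoint signalling genes 8 were higher in the IP and 3 lower, with CDC25B, a phosphatase that activates cyclin-dependent kinases, at 1.51, CLSPN at 1.48, the histone gene H2AFX at 0.88 and TOPBP1, the ATR activator, at -0.89. Of 25 other homologous recombination genes 8 were higher and 4 lower, led by the helicase RECQL4 at 1.24, SWSAP1 at 1.08, RMI2 at 0.90 and RPA1 at 0.77. Of 19 other Fanconi and crosslink repair genes 3 were higher and 2 lower, among them FAAP100, the core complex subunit that binds FANCB and FANCL, at 1.28, FAAP20 at 0.84, SLX4, a nuclease scaffold, at 0.83 and APITD1 at -0.77.

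Of 17 break-site ubiquitin and chromatin genes 3 were higher and 1 lower, among them C20orf196 at 0.77, BRE at 0.72, the acetyltransferase KAT5 at 0.64 and TRIP12 at -0.51. Of 17 other end joining genes 5 were higher and 1 lower. There APLF, which binds Ku, was at -1.34 and the polymerase POLL at 0.84, while POLM at 0.83 did not pass (edgeR adjusted p 0.084). Of 17 p53 targets and regulators 4 were higher and 2 lower, with SESN2 at 0.99, MDM2, the ubiquitin ligase of p53, at -0.88, TP53I3 at 0.75 and ZMAT3 at -0.68. Of 22 replication and mitosis genes 11 were higher and 0 lower, with MCM7 at 1.22, MCM4 at 1.20, the kinase PLK1 at 0.98 and MCM3 at 0.90. These counts stand beside the 19.2% higher and 17.6% lower among all features, and no test of the lists was made.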

How the data were processed

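A single count table covers all 4 libraries. The authors deposited raw read counts, with symbols as row names and no normalization, per the file headers and whole-number values. Tools and build named in the submitters' processing notes are cutadapt 1.9, HISAT2 2.0.4, StringTie 1.3.4d and hg38; their roles, the read counting, strand setting and annotation used are not stated there. In each library 71.4% to 75.6% of counts from 3 to 6 were even, as when both mates are counted, so counting intervals may be too narrow.

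A feature was kept with 10 or more counts in 2 or more libraries (99.9% of all counts). TMM factors (edgeR 4.0.16, R 4.3.3) were 0.904, 0.979, 1.09 and 1.03 for shRBM39 IP, shRBM39 input, shControl IP and shControl input, and 0.5 was added before log2 ratios. Ratio intervals are exact conditional (Clopper-Pearson) at 95%, and those of differences use the counting standard error. IP was tested against input by edgeR's quasi-likelihood test on culture and fraction, with DESeq2 1.42.0 as an alternative. The edgeR test was tried on simulated counts with no difference between cultures, so the simulation does not cover data with such differences. Other alternatives changed the scaling, filter, added count, interval or fold threshold. The 4 libraries allow no comparison between replicates of a group.

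The members and lists were chosen with earlier results of these data known. Every member is named, as are up to 4 genes of each other list with the largest log2 ratio in size among those with at least 100 summed counts, RBM39 and RFX1, the gene of the series title (log2 IP over input 1.59 in shRBM39 cells and 1.11 in shControl cells). Markers and overlapping genes were named after their values were seen. FAS did not pass the filter. Columns of other samples numbered 0. Some items are not reported here.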

Additional observations from a re-analysis of the deposited data

Results flagged for a closer look

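FANCI and PRKDC were on opposite sides of their input in the 2 cultures, each with a counting interval clear of equality. FANCI had a log2 ratio of IP over input of -0.19 in shRBM39 cells and 0.35 in shControl cells, a difference of -0.54. PRKDC was at -0.49 in shRBM39 cells and 0.09 in shControl cells, a difference of -0.58. With total counts the differences were -0.74 and -0.78. With 1 library per group these differences were not tested against the spread between samples.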

How the results depend on the processing

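Of the results that summarise the 33 genes, those under DESeq2 size factors, a minimum of 50 counts, 2 added to each count, halved counts for the interval, and the DESeq2 test stayed within 1.5 times the reported count, and their medians moved by less than the typical counting error of a single gene. At the minimum of 50 counts the medians were -0.12 for shRBM39 IP over input, -0.03 for shControl IP over input, 0.13 for the inputs and -0.08 for the difference, and FANCG at 0.97 was no longer called in shControl IP over input, which left 0 higher and 3 lower calls. With libraries scaled to total counts, 1 gene was called in shRBM39 IP over input instead of 0, 0 in the inputs instead of 1, and the medians were -0.16 for shRBM39 IP over input and -0.24 for the difference of recovery; the median of all features shifted by -0.11 and -0.19 in these comparisons. Without a filter, 2 genes were called in shControl IP over input instead of 4, and the median for shRBM39 IP over input was 0.0701, where all features shifted by 0.12. At 1.5-fold the counts were 11 in shRBM39 IP over input, 14 in shControl IP over input, 4 in the inputs and 2 for the difference, since a lower threshold admits more genes. In the edgeR test, dropping the culture term (no replicate block) left 0 of 14 calls, and total counts left 12, without FANCE and XRCC3. A minimum of 50 counts gave 16 calls, of which 13 were shared with the reported 14, with ATR, BRCA1 and BLM added and FANCE lost. The cause of these changes was not tested. No gene called in a single comparison changed sign under any scaling, filter or added count. That outcome was fixed in advance, since these changes moved the ratios by far less than the 2-fold threshold of a call. Fits without 1 of the 4 libraries were not run: the model with culture and fraction has 1 residual degree of freedom, which leaving out a library would use up. Depth limits FANCB, FANCC, FANCE and FANCF most, with 128 to 242 counts in the inputs.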
